A study of Mus musculus with 2 samples.

Results

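The 10 genes described here code for surface proteins through which macrophages and T cells activate or restrain each other: Cd40, Cd80, Cd86, Cd83, Cd274, Pdcd1lg2, Icosl, Havcr2, Cd200r1 and Slamf7. They were chosen by name, for their function, with earlier results of these data known. All 10 were found among the 55536 annotated genes of the mouse (GENCODE M21 annotation, genome build mm10, also called GRCm38). Not all are ligands: Cd80, Cd86, Icosl, Cd274 and Pdcd1lg2 code for ligands of the B7 family, while Cd40, Havcr2, Cd200r1 and Slamf7 code for receptors and Cd83 for a regulator of other surface proteins. Transcript levels came from polyA plus RNA-seq of macrophages grown from the bone marrow of C57BL/6J mice, a primary phagocyte that can present antigen. The assay name in the labels is polyA plus, while their molecule field gives total RNA. All cells had the same treatment, namely 12 h with lipid A at 100 ng/ml, 12 h after its removal, and then 120 min with the same dose. The receptor TLR4 senses this part of bacterial lipopolysaccharide, and other label fields write lipoprotein A for the agent. There were 2 libraries, in 1 group, labelled biological replicates 1 and 2. Both carry the same donor identifier, and sex and age are given as not collected. No untreated or singly treated sample was analysed here, so nothing below says whether a gene responded to lipid A.

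A T cell that recognises antigen needs further signals from the presenting cell to respond in full. CD80 and CD86 give such a signal by binding CD28, and the same ligands restrain the T cell when they bind CTLA-4 instead. PD-L1 and PD-L2, the products of Cd274 and Pdcd1lg2, restrain T cells through PD-1. CD40 carries a signal the other way: T cells bearing CD40 ligand bind it and activate the macrophage.

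The libraries held 45341960 and 32087664 expected counts over annotated genes in replicates 1 and 2. An expected count is the estimated number of reads of a gene, which need not be whole, and is called reads below. Levels are in TPM, a measure of transcript abundance that is corrected for transcript length, so that genes can be compared with each other. All 8 macrophage markers, among them Adgre1, Csf1r and Cd68, were at 10 TPM or more in both libraries, summing to 16287 and 18004 TPM. Of 10 dendritic cell markers 6 were under 1 TPM in both libraries, including Flt3 (0.09 and 0.07 TPM) and Zbtb46 (0.13 and 0.15 TPM), and the list summed to 32.61 and 38.36 TPM. The other 4 were Fscn1 at 15.43 and 30.76 TPM, Batf3 at 7.21 and 2.34, Ccr7 at 4.55 and 3.6 and Itgax at 4.14 and 0.85. The 5 T cell markers summed to 0.59 and 0.21 TPM and the 4 natural killer cell markers to 0.34 and 0.01 TPM. The neutrophil list summed to 66.37 TPM in replicate 1 and 10.94 TPM in replicate 2, with S100a8 at 25.77 and 3.72 TPM, S100a9 at 26.42 and 1.18, Ngp at 7.99 and 0.4, Mmp8 at 5.79 and 5.54 and no read of Ly6g in either. Of B cell genes, Cd79b was at 7.31 and 2.47 TPM, from 216 and 50 reads, and Cd79a, Ms4a1 and Pax5 were at or under 0.04 TPM in both. The part of these other cell types in the levels below was not tested. In bulk RNA, a change in the number of cells that express a gene and a change in the RNA per cell cannot be told apart.

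Of the 10 genes, 8 were at 10 TPM or more in both libraries, and only Pdcd1lg2 was under 1 TPM in both. The same level was reached by 27.2% of the 22028 protein-coding genes and by 61.3% of the 9773 protein-coding genes detected at 1 TPM or more in both. The median of the mean levels was 56.275 TPM for the 10 genes and 18.205 TPM for those detected protein-coding genes. By mean level the genes fell into rough tiers. Slamf7 was the highest, Cd40, Cd274 and Cd83 lay next, Icosl, Cd86 and Cd200r1 formed a lower tier, and Cd80, Havcr2 and Pdcd1lg2 came last. Across the order by mean level, the ranges of the 2 libraries overlapped between neighbours within the tier of Cd40, Cd274 and Cd83 and within the tier of Icosl, Cd86 and Cd200r1. They did not overlap at the other 5 steps, but some of those gaps were narrow. Slamf7 had 703.93 TPM in replicate 1, beside 683.61 TPM for Cd40 in replicate 2. Cd80 had 12.05 TPM in replicate 1, beside 11.92 TPM for Havcr2 in replicate 2.

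**Figure D1:**
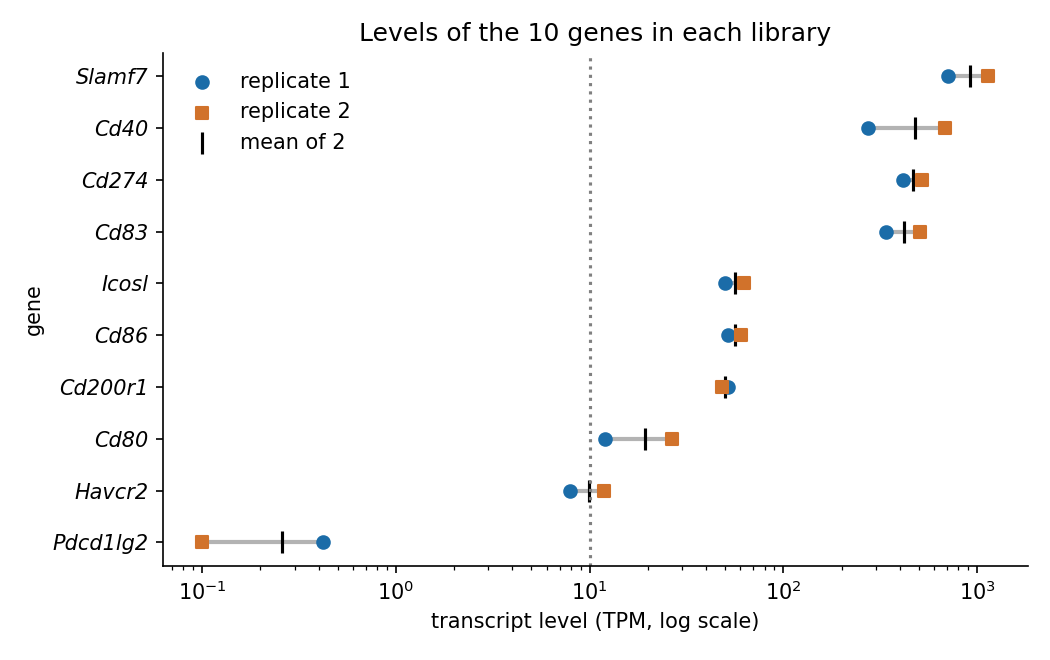
Level of each of the 10 genes in TPM (horizontal log axis) in replicate 1 (circles) and replicate 2 (squares), with the mean of the 2 libraries as a vertical tick and the dotted line at 10 TPM. Slamf7 is at the top with 704 and 1141 TPM, and Pdcd1lg2 is alone at the bottom with 0.42 and 0.10 TPM.

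Among the B7 ligands of CD28, Cd86 was the more abundant transcript and Cd80 the less even. Cd86 (ENSMUSG00000022901.13, chr16:36603869-36666081, minus strand) was at 51.71 TPM in replicate 1 and 60.45 TPM in replicate 2, a mean of 56.1 ± 6.18 TPM (SD, n = 2), from 3574 and 2805 reads. Cd80 (ENSMUSG00000075122.5, chr16:38455561-38496335, plus strand) was at 12.05 and 26.5 TPM, a mean of 19.3 ± 10.2 TPM (SD, n = 2), from 663 and 1070 reads. Cd80 thus stood below Cd86 in each library, and the 2 ranges did not meet. The ratio of Cd86 to Cd80 in TPM was 4.29 in replicate 1 and 2.28 in replicate 2, and 2.90 and 1.74 in an alignment-free quantification of the same reads. The 2 genes lie on the same chromosome, and the lower coordinates of their spans are 1851.7 kb apart.

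Both genes of this pair came almost wholly from protein-coding transcripts. The transcript Cd86-201 held 96.67% and 95.14% of the TPM of Cd86. Cd80-201 held 68.02% and 59.02% of the TPM of Cd80 and Cd80-202 held 26.43% and 35.72%, and each has the same 918 coding bases. The alignment-free quantification gave 74.5% and 71.8% for Cd80-201 and 20.1% and 26.8% for Cd80-202. By share of reads, Cd80-201 led in replicate 1 (55.0% against 43.6%) and Cd80-202 in replicate 2 (54.4% against 44.3%). An exon of 282 bases (chr16:38479064-38479345), absent from the minor transcript Cd80-203, was carried by 94.4% and 94.8% of the TPM of transcripts that span it.

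Icosl, which codes for the ligand of the T cell receptor ICOS, was level with Cd86. Icosl (ENSMUSG00000000732.9, chr10:78069302-78083913, plus strand) was at 50.25 and 62.69 TPM, a mean of 56.5 ± 8.80 TPM (SD, n = 2), from 3945 and 3315 reads. Icosl was below Cd86 in replicate 1 and above it in replicate 2. In the alignment-free quantification Icosl was above Cd86 in both, at 44.6 and 62.1 TPM against 42.0 and 55.8 TPM. Their order thus depended on the quantification and was not settled by these libraries. The coding transcript Icosl-201 held 96% and 93.65% of the TPM of Icosl.

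The 2 ligands of PD-1 stood at opposite ends of the scale. Cd274, the gene of PD-L1 (ENSMUSG00000016496.7, chr19:29367455-29388095, plus strand), was at 414 and 519.7 TPM, a mean of 467 ± 74.7 TPM (SD, n = 2), from 43378 and 36927 reads. Pdcd1lg2, the gene of PD-L2 (ENSMUSG00000016498.10, chr19:29410919-29471161, plus strand), was at 0.42 and 0.1 TPM, a mean of 0.26 ± 0.226 TPM (SD, n = 2), from 18 and 3 reads. Cd274 was higher than 97.0% of detected protein-coding genes, whereas Pdcd1lg2 fell under the detection level of 1 TPM in each library. In TPM the ratio of Cd274 to Pdcd1lg2 was 986 in replicate 1 and 5197 in replicate 2, with the latter value resting on 3 reads. Counting error in Pdcd1lg2 alone gives 95% intervals of 624 to 1663 and 1778 to 25202 for these ratios. The alignment-free table gave 804 and 2362. Their starts are only 43.5 kb apart on the same strand, so direct neighbours in the genome stood far apart in level. All TPM of Cd274 came from Cd274-201. The reads of Pdcd1lg2 were too few to tell its transcripts apart.

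Since these neighbours differed so widely, the 250 bases before the RefSeq start of each are shown (RefSeq, GRCm38.p6, plus strand, 5′ to 3′), Cd274 at chr19:29367188-29367437 and Pdcd1lg2 at chr19:29410669-29410918. Capitals mark a match to the NF-kB motif, and there is none in the stretch of Cd274.
Cd274: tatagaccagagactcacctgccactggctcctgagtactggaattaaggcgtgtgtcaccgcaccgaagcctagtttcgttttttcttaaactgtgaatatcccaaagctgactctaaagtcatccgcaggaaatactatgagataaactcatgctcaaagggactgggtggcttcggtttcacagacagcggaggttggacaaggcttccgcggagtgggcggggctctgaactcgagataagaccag
Pdcd1lg2: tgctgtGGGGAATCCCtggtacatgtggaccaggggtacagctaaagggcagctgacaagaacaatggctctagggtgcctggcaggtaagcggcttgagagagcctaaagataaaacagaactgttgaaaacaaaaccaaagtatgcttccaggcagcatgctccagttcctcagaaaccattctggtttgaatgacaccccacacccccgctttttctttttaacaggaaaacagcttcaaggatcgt
The match GGGGAATCCC lies 244 to 235 bases before the start of Pdcd1lg2, the gene with almost no reads. Stretches of this kind could be matched for 6 of the 10 genes: Cd80, Cd274, Pdcd1lg2, Icosl, Havcr2 and Slamf7. Both strands were searched for 4 motifs of factors active after TLR4 or interferon signalling. The NF-kB motif was found in 2 of the 6 stretches, those of Pdcd1lg2 and Icosl, and in 7.25% of 32851 promoters of the same length. The AP-1 motif TGANTCA was found in 3, those of Cd80, Havcr2 and Slamf7, against 6.75% of all promoters. The core of the interferon response element (GAAA, any 2 bases and GAAA again, in 2.98% of promoters) and the STAT motif TTCNNNGAA (7.02%) were found in none of the 6. RefSeq starts can differ from the ends of the GENCODE gene spans given here. The stretches of Cd80 (chr16:38458683-38458932) and Slamf7 (chr1:171649000-171649249) lie inside those spans, and that of Icosl (chr10:78069118-78069367) lies partly inside. These matches are letters in a window, and binding was not measured.

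Cd40, the receptor for CD40 ligand, was high in both libraries, and of the genes with enough reads it was the one whose transcript shares differed most between them. Cd40 (ENSMUSG00000017652.16, chr2:165055627-165072948, plus strand) was at 274.8 TPM in replicate 1 and 683.6 TPM in replicate 2, a mean of 479 ± 289 TPM (SD, n = 2). Reads of the gene numbered 10005 and 11924. In reads scaled to library size, replicate 2 was 1.77-fold higher (95% counting interval 1.73 to 1.82), but in TPM it was 2.49-fold higher. The effective length, by which reads are divided to give TPM, was 1159.5 bases in replicate 1 and 821.85 in replicate 2, since more of the reads were assigned to a short transcript.

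That short transcript was Cd40-203, of 668 bases. It lacks an exon of 62 bases (chr2:165066503-165066564) that the full-length coding transcript Cd40-201 has. The number 62 leaves a remainder of 2 when divided by 3, so the reading frame changes behind the junction. Cd40-202 lacks instead the next exon, of 87 bases (chr2:165069629-165069715), which keeps the frame and codes for the membrane-spanning segment. Both exons are shown because the shares of the gene's transcripts turn on them (mm10, plus strand, transcript sequences of GENCODE M21). Capitals mark the exon, and lower case marks 15 bases on either side. The first pair of lines shows the exon of 62 bases present in Cd40-201 and skipped in Cd40-203, and the second pair shows the exon of 87 bases present in Cd40-201 and skipped in Cd40-202.
Cd40-201, exon of 62 bases: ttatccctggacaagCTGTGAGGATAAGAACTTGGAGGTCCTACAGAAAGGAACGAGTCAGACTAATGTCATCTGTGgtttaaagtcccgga
Cd40-203, junction: ttatccctggacaaggtttaaagtcccgga
Cd40-201, exon of 87 bases: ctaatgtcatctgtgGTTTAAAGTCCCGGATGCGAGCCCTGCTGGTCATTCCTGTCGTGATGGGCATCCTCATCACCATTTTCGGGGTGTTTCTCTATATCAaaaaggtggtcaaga
Cd40-202, junction: ctaatgtcatctgtgaaaaggtggtcaaga

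Cd40-203 held 29.92% of the gene's TPM in replicate 1 and 67.3% in replicate 2, a mean of 48.6 ± 26.4% (SD, n = 2). The other transcripts took smaller shares in replicate 2: Cd40-202 had 33.05% and 14.45%, Cd40-201 had 17.54% and 11.91%, and Cd40-207, annotated for nonsense mediated decay, had 17.08% and 5.19%. The leading transcript was therefore Cd40-202 in replicate 1 and Cd40-203 in replicate 2. In reads, which are not divided by length, Cd40-203 had 992.28 and 3848.5, or 9.92% and 32.3% of the gene, and the long Cd40-201 led in both libraries with 40.9% and 39.3%. In the alignment-free table, Cd40-203 held 29.8% and 58.4% of TPM. There it led in both libraries, since Cd40-202 had 26.3% and 18.4%, so the change of leading transcript was seen in the alignment-based table alone. Seen by exon, the stretch of 62 bases was carried by 69.8% and 32.2% of the TPM of transcripts that span it, and by 69.0% and 40.1% in the alignment-free table. The stretch of 87 bases was carried by 66.1% and 85.4%.

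Without Cd40-203, the level of Cd40 was 192.58 TPM in replicate 1 and 223.55 TPM in replicate 2, a ratio of 1.16. Cd40-203 itself was at 82.24 and 460.07 TPM, a ratio of 5.59. In alignment-based TPM, nearly all of the gap of 408.8 TPM between the libraries thus lay in this transcript, which made up 377.83 TPM of it. The alignment-free table gave a ratio of 1.32 for the gene without Cd40-203. In scaled reads, which are not divided by length, that ratio was 1.33, beside 1.77 for the whole gene. Of 5699 genes with at least 2 transcripts at a sufficient level, 12.8% changed their leading transcript between the libraries, and among 7 of the 10 genes that qualified, Cd40 was the 1 that did. Its largest shift in share, 37.38 percentage points, was exceeded by 3.70% of the 5699 genes, whose median was 7.48 points.

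**Figure D2:**
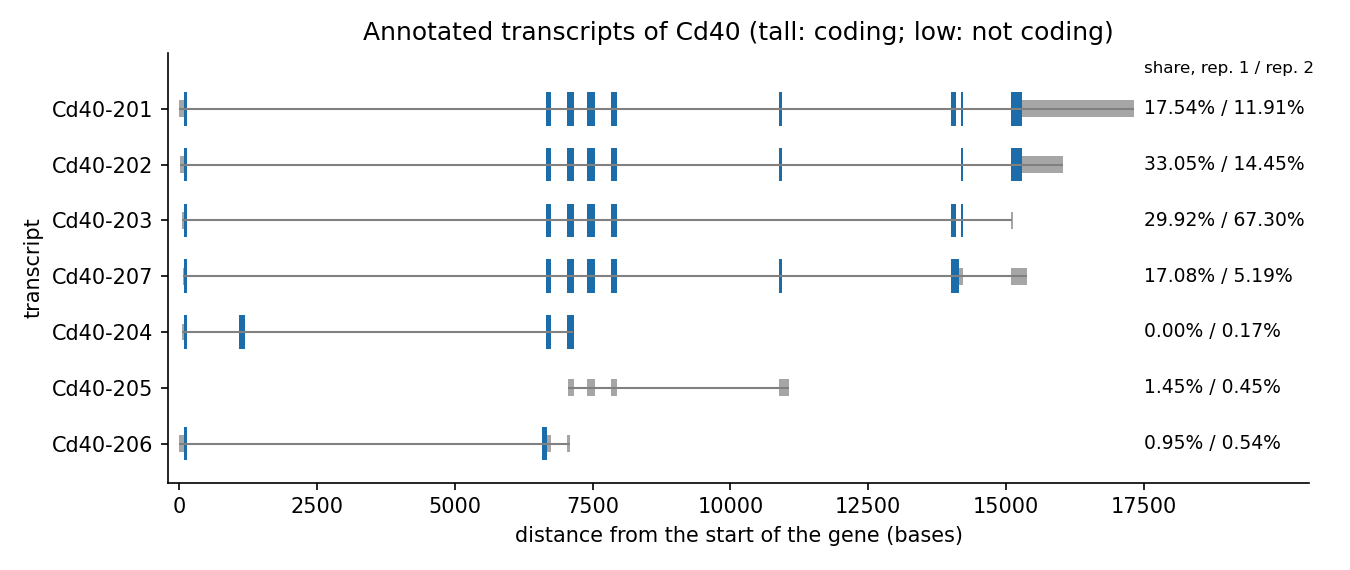
Exons of the 7 annotated transcripts of Cd40 by distance from the gene's start in bases (tall blocks coding, low blocks not coding), with each transcript's share of the gene's TPM in replicates 1 and 2 at the right. Cd40-203 lacks the exon of 62 bases and most of the last exon, and its share is 29.92% in replicate 1 and 67.3% in replicate 2.

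Cd83, whose product protects MHC class II and CD86 from removal from the cell surface, was near Cd274 and Cd40 in level, but most of its RNA was assigned to a transcript that is not annotated as coding. Cd83 (ENSMUSG00000015396.4, chr13:43784775-43803132, plus strand) was at 336.8 and 504.5 TPM, a mean of 421 ± 119 TPM (SD, n = 2), from 20658 and 21595 reads. Cd83-202 keeps an intron of 95 bases (chr13:43785251-43785345) that Cd83-201, the coding transcript, splices out. The intron is printed in capitals because it is what tells the 2 transcripts apart at this place (mm10, plus strand, 15 bases on either side in lower case).
Cd83-202, intron kept: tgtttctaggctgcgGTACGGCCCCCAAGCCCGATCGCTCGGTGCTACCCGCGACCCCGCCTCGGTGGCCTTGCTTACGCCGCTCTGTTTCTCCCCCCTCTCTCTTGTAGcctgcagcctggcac
Cd83-201, spliced: tgtttctaggctgcgcctgcagcctggcac

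Cd83-202 held 74.69% of the gene's TPM in replicate 1 and 58.26% in replicate 2, a mean of 66.5 ± 11.6% (SD, n = 2). In TPM it was close in both libraries, at 251.51 and 293.92, while Cd83-201 stood at 85.24 and 210.57, a ratio of 2.47. The alignment-free table put the coding transcript at 30.9% and 56.2%, so in replicate 2 the tables differed in which transcript led. The level of coding Cd83 RNA was therefore less certain than the level of the gene.

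Slamf7 was the most abundant of the 10 genes. It codes for a receptor of the SLAM family that binds itself on neighbouring cells and is known on macrophages as well as on lymphocytes. Slamf7 (ENSMUSG00000038179.13, chr1:171632403-171653035, minus strand) was at 703.9 and 1141 TPM, a mean of 922 ± 309 TPM (SD, n = 2), from 54346 and 75050 reads. It was higher than 98.8% of detected protein-coding genes. In scaled reads replicate 2 was 2.05-fold higher (95% counting interval 2.03 to 2.08), and in TPM 1.62-fold higher, since its effective length was 2458.9 bases in replicate 1 and 3099.5 in replicate 2.

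The leading transcript Slamf7-203 held 53.21% and 76.64% of the gene's TPM. Slamf7-204 had 16.79% and 5.06%, Slamf7-202 had 13.13% and 17.67%, and Slamf7-201 had 15.93% and 0%. The alignment-free table gave 26.6% and 4.62% for Slamf7-201. The share of Slamf7-201 was thus lower in replicate 2 in both tables, and it was 0 in the alignment-based table alone. Slamf7-202 skips an exon of 104 bases (chr1:171637297-171637400), with a change of frame, as 104 leaves a remainder of 2 when divided by 3. The exon is shown since its share differed less between the libraries than that of Slamf7-203 (mm10, minus strand, 5′ to 3′, exon in capitals, 15 bases on either side in lower case).
Slamf7-203, exon of 104 bases: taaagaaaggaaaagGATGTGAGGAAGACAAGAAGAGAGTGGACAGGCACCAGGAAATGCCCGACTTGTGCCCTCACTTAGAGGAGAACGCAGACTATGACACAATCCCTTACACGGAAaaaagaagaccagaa
Slamf7-202, junction: taaagaaaggaaaagaaaagaagaccagaa
It was carried by 85.9% and 81.7% of the TPM of transcripts that span it, a difference of a few points beside the shift of 23.43 points in Slamf7-203. The alignment-free table gave 86.6% and 80.4%. No other stretch of Slamf7 was examined in this way.

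**Figure D3:**
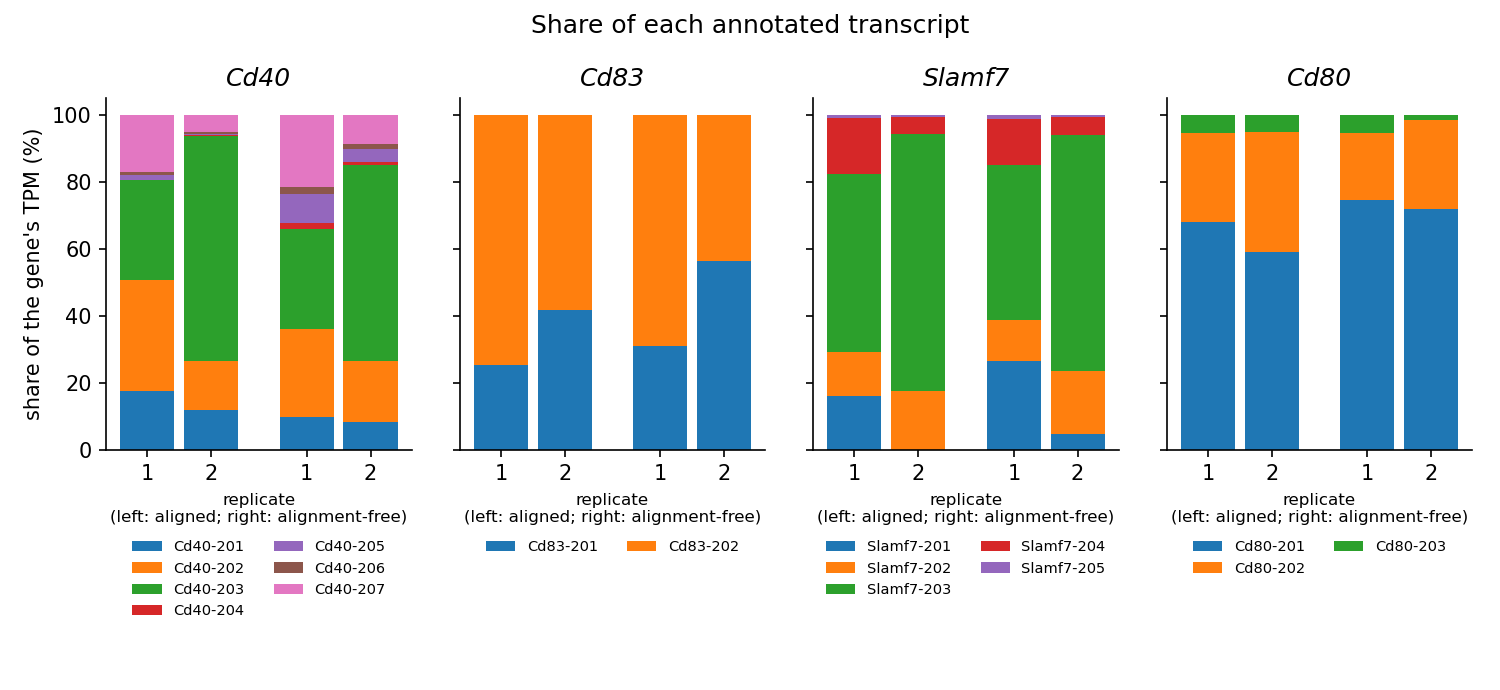
Share of each annotated transcript in the gene's TPM (percent, stacked bars) for Cd40, Cd83, Slamf7 and Cd80, with replicates 1 and 2 of the alignment-based table at the left of each panel and of the alignment-free table at the right. Cd40-203 takes 29.92% and 67.3% of Cd40 and the retained intron transcript Cd83-202 takes 74.69% and 58.26% of Cd83 in the alignment-based table.

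The inhibitory receptors of the set were lower. Cd200r1, the receptor for CD200 that restrains myeloid cells (ENSMUSG00000022667.18, chr16:44765736-44794978, plus strand), was at 51.77 and 47.99 TPM, a mean of 49.9 ± 2.67 TPM (SD, n = 2), from 2621 and 1656 reads. Havcr2, the gene of TIM-3 (ENSMUSG00000020399.14, chr11:46454935-46481255, plus strand), was at 7.94 and 11.92 TPM, a mean of 9.93 ± 2.81 TPM (SD, n = 2), from 607 and 619 reads. Cd200r1 was the steadiest of the 10 between the libraries, and Havcr2 straddled the level of 10 TPM. Each came almost wholly from a single coding transcript, with 98.48% and 96.69% for Cd200r1-201 and all TPM for Havcr2-201. Slamf7 was 88.7-fold and 95.7-fold above Havcr2 in TPM.

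Between the libraries, 8 of the 10 genes were higher in replicate 2, 1 was higher in replicate 1 and Cd200r1 was not called. This rests on an exact two-sided binomial test of rounded reads with Benjamini-Hochberg adjustment over 12552 genes, which covers counting noise between 2 libraries and compares no conditions. By the same test 65.2% of all tested genes were called, 32.7% as higher in replicate 2 and 32.5% as higher in replicate 1. A call is therefore common at this depth, and the size of a ratio says more. The median absolute log2 ratio of tested genes was 0.36, or 1.29-fold. Cd80 had the largest ratio upward, 2.40-fold (95% counting interval 2.18 to 2.65, adjusted p = 1.43e-71 in the exact test), and 6.52% of tested genes had a larger ratio in either direction. Then came Slamf7 and Cd40, as given above, exceeded by 10.4% and 16.9% of genes.

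Cd83 was 1.55-fold higher in replicate 2 (1.52 to 1.58) and Havcr2 1.52-fold higher (1.35 to 1.70, adjusted p = 1.53e-12 in the exact test), both beyond the median ratio of tested genes. Cd274 was 1.27-fold higher (1.25 to 1.28), Icosl 1.25-fold higher (1.19 to 1.31, adjusted p = 2.55e-20 in the exact test) and Cd86 1.17-fold higher (1.11 to 1.23, adjusted p = 3.40e-09 in the exact test). These 3 ligands were within what most genes showed: 52.6%, 54.8% and 66.9% of tested genes had larger ratios. Cd200r1 was 1.06-fold higher in replicate 1, with an adjusted p of 0.0705 in the exact test. Pdcd1lg2 was 3.56-fold higher in replicate 1 on 18 and 3 reads (adjusted p = 0.0232 in the exact test, and 0.133 with alignment-free counts, which ends the call), and the 95% counting interval of the inverse ratio ran from 0.0468 to 0.849. The median log2 ratio was 0.47 for the 10 genes and -0.02 for all tested genes.

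**Figure D4:**
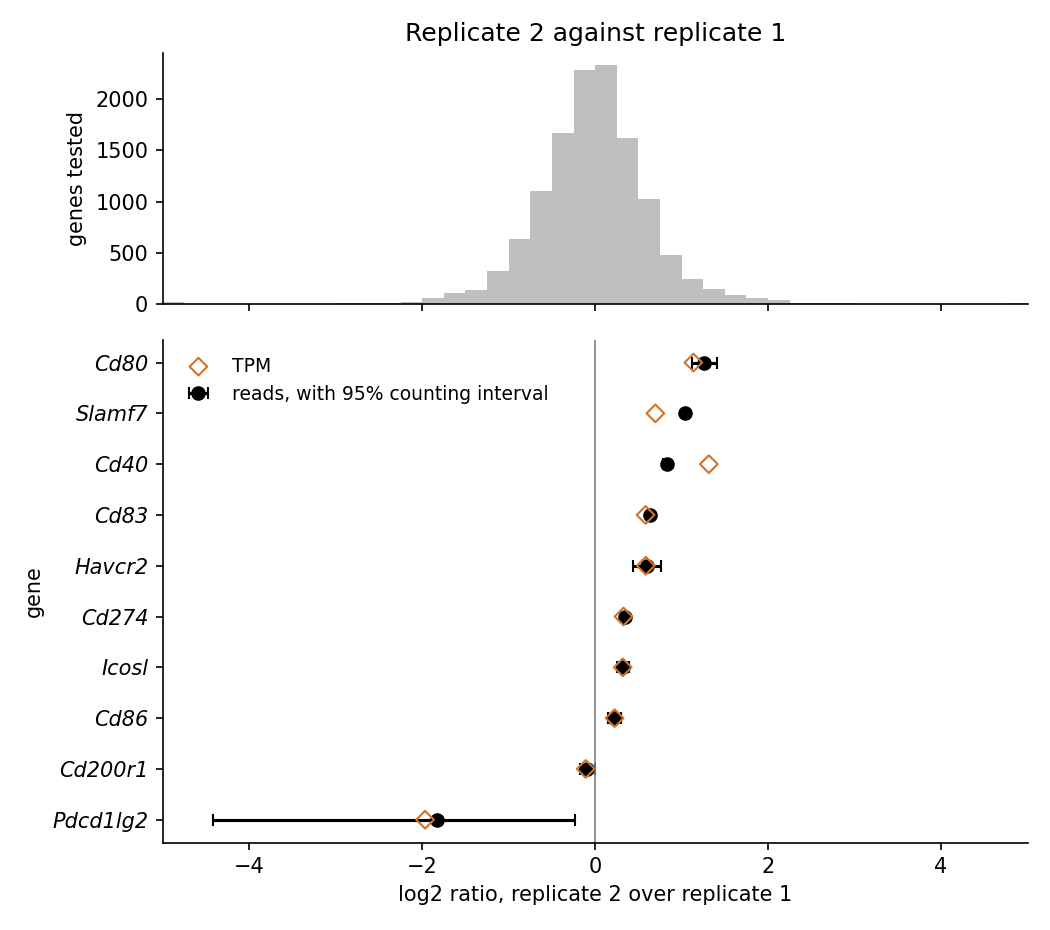
Log2 ratio of replicate 2 to replicate 1 for all 12552 tested genes (upper histogram, ratios beyond 5 placed in the end bars) and for each of the 10 genes (lower panel), from scaled reads with 95% counting intervals (filled circles) and from TPM (open diamonds). The circle and the diamond lie apart for Cd40 (1.77-fold in reads, 2.49-fold in TPM) and Slamf7 (2.05-fold and 1.62-fold), the genes of the 10 whose effective length differed most.

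Of the 10 genes, 2 share exon bases with another gene. Cd274 shares 511 exon bases with the antisense gene AC119228.1 (5.04 and 4.28 TPM), and Slamf7 shares 423 with the antisense gene Gm37787 (16.62 and 6.26 TPM). Whether counting used strand is not given in the sources used here, so reads in these bases could belong to either gene. Pdcd1lg2 lies across the antisense gene A930007I19Rik but shares 0 exon bases with it, and that gene had 40 and 31 reads, more than Pdcd1lg2 itself. Both antisense genes had far fewer reads than their partners, at most 661.63 beside 43378 for Cd274 and 158.18 beside 54346 for Slamf7. The other 8 genes had whole numbers of reads, to the 2 decimals deposited, in both libraries.

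The partner and pathway genes of these proteins were read from 8 lists. Their counts of calls stand beside 32.7% of all tested genes called higher in replicate 2 and 32.5% called higher in replicate 1. Of 11 receptors that T cells use to bind these ligands and their relatives, 9 were under 1 TPM in both libraries. Ctla4 had no read, Pdcd1, the gene of PD-1, and Cd40lg had 1 read each in replicate 1 and 0 in replicate 2, Icos was at 0.25 and 0.24 TPM and Btla at 0.14 TPM in both. The exceptions were Cd28 at 33.4 and 35.46 TPM and Lag3, a receptor for MHC class II, at 10.75 and 4.17 TPM. Of the 4 tested, 1 was called higher in replicate 2 and 1 in replicate 1.

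Other ligands of the B7 and coinhibitory group ranged from high levels to no read. Of 13, 6 were at 10 TPM or more in both libraries and 6 were under 1 TPM in both. Among those at 10 TPM or more, Nectin2 (15.66 and 14.22 TPM) and Cd200 (15.92 and 10.08 TPM) were only moderate. Ceacam1, at 6.64 and 17.23 TPM, was in neither class. Lgals9, the gene of galectin-9, a ligand of TIM-3, was the highest at 1076.8 and 1069.4 TPM and did not pass the exact test (adjusted p = 0.41). Tnfrsf14, the ligand of BTLA, was at 198.79 and 204.69 TPM, Vsir, the gene of VISTA, at 121.8 and 229.93 TPM, and Pvr, a ligand of TIGIT and CD226, at 30.45 and 50.91 TPM. For TIM-3, then, the ligand transcript was far above that of the receptor Havcr2 in the same libraries. In this list 3 of 7 tested genes were called higher in replicate 2 and 2 higher in replicate 1. The calls use scaled reads, and for 3 of these 5 genes TPM pointed the other way. Tnfrsf14 and Vsir were 0.729-fold and 0.909-fold in replicate 2 in scaled reads but higher there in TPM, and Cd200 was 1.47-fold higher in reads but had 15.92 and 10.08 TPM.

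Of 7 costimulatory ligands of the TNF superfamily, 2 were at 10 TPM or more in both libraries, and all 4 that were tested were higher in replicate 2. Tnfsf9, the gene of 4-1BB ligand, was at 50.89 and 149.69 TPM, a ratio of 2.99 in scaled reads. Tnfsf15, the gene of TL1A, was at 22.48 and 84.55 TPM (3.79-fold), Tnfsf4, the gene of OX40 ligand, at 1.04 and 2.86 TPM (2.76-fold) and Tnfsf8, the gene of CD30 ligand, at 0.36 and 1.68 TPM (4.64-fold). The list's median log2 ratio was 1.75, beside -0.02 for all tested genes. Of all tested genes, 32.7% were called higher in replicate 2, and of the 10 genes 8 were. In the lists of CD200 receptor and surface turnover genes below, none was called in that direction.

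Distances in this paragraph run between the lower coordinates of the gene spans, whatever the strand. Counting genes within 1 Mb of Slamf7, 9 SLAM family genes, Slamf7 included, span 1031.4 kb of chromosome 1. Of these, Slamf9 and Slamf8 lie farthest from Slamf7, 843 and 949.4 kb away. Slamf7 had the highest mean level of the 9. Its neighbour Ly9, 43.8 kb away, was at 468.36 and 732.76 TPM, and Cd84 was at 431.1 and 495.86 TPM. Cd48, 49.6 kb away on the other side of Slamf7, was at 223.84 and 154.67 TPM and Slamf9 at 211.41 and 140.07 TPM. The neighbours Ly9 and Cd48 thus differed between the libraries in opposite directions, with Ly9 called higher in replicate 2 and Cd48 higher in replicate 1, as was the more distant Slamf9. Of the adaptors, Sh2d1b1, the gene of EAT-2, through which SLAMF7 signals in natural killer cells, was at 1 and 1.33 TPM, Sh2d1a at 0.06 and 0 TPM, and Sh2d1b2 had no read. Of the 11 genes of this list, 9 were tested, with 3 called in each direction.

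The genes listed for CD40 signalling were all present. Of 11, 8 were at 10 TPM or more in both libraries and none was under 1 TPM in both. Nfkb2, the gene of the p100 precursor of the noncanonical NF-kB pathway, was at 178.7 and 194.69 TPM, Tank at 137 and 218.79 TPM, the adaptor Traf1 at 162.87 and 171.52 TPM and the ubiquitin ligase Birc3 at 159.92 and 166.23 TPM. The call was higher in replicate 2 for 5 and higher in replicate 1 for 3. The median log2 ratio was 0.09, and the ratio of 1.77 in Cd40 itself was above those of all 4 named genes.

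Around the inhibitory receptors, Cd200r4, a relative of Cd200r1, was at 92.05 and 74.49 TPM, above Cd200r1 in each library, and Cd200r2 and Cd200r3 were under 1 TPM. Of the signalling genes in the same list, the adaptor genes Dok1 and Dok2 were at 74.23 and 36.13 TPM and at 24.28 and 18.94 TPM. Rasa1 was at 18.34 and 19.03 TPM. None of the 5 tested genes of this list was called higher in replicate 2 by the exact test, and 3 were higher in replicate 1. The partners of TIM-3 named Bag6 and Hmgb1 were at 98.69 and 89.55 TPM and at 82.75 and 90.29 TPM, with 1 called in each direction, and the other TIM family genes Havcr1, Timd2 and Timd4 were under 1 TPM. Havcr2 was thus the only TIM family gene read above 1 TPM among the 4 examined.

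Surface levels of these proteins also depend on their removal. March1, the ubiquitin ligase that removes CD86 and MHC class II, was at 74.71 and 66.7 TPM, above Cd86 in each library. Cmtm6, which keeps PD-L1 at the surface, was at 59.38 and 49.31 TPM, March8 at 36.26 and 35.14 TPM and Cmtm4 at 2.6 and 2.77 TPM. Of these 4 genes, 3 were called higher in replicate 1 and none higher in replicate 2 by the exact test, all by under the median ratio of tested genes. Protein at the surface was not measured.

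**Figure D5:**
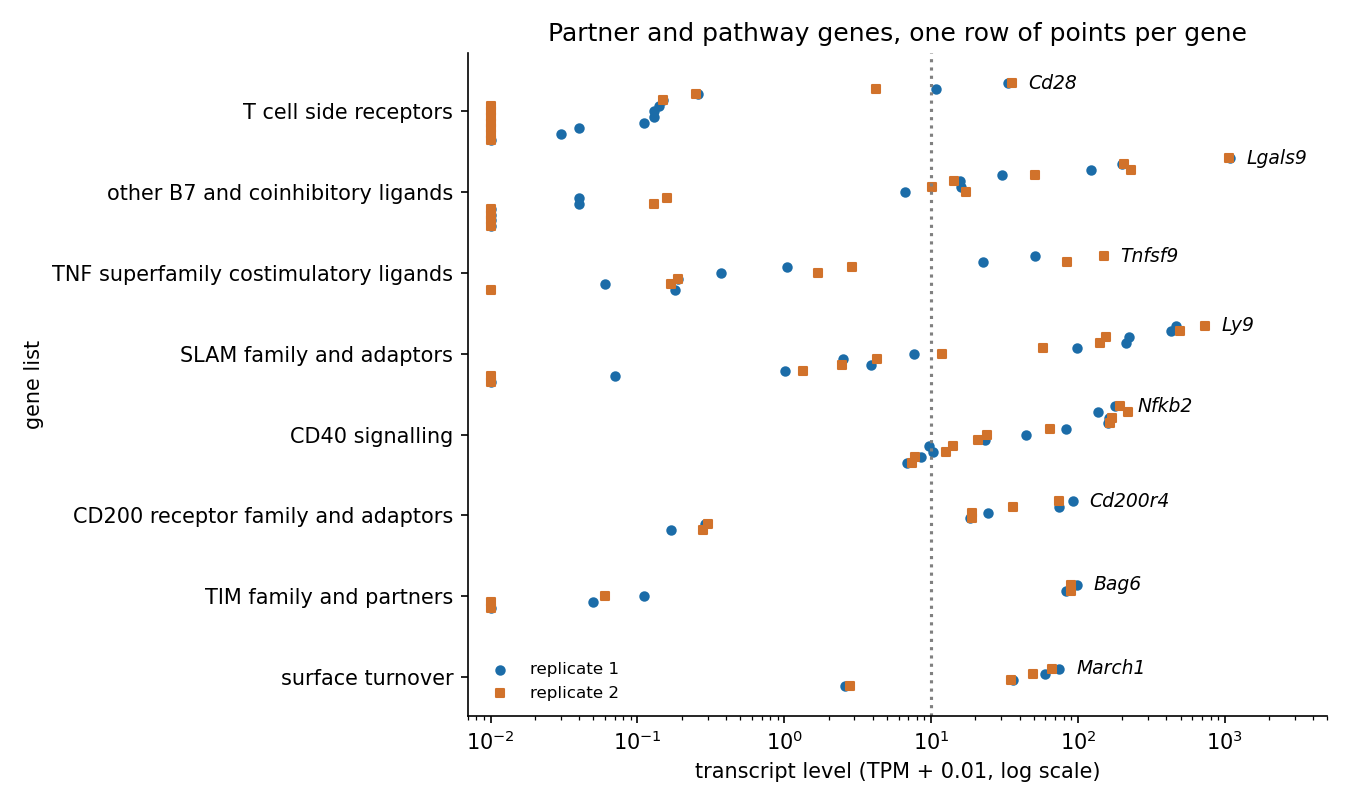
Levels in TPM plus 0.01 (horizontal log axis) of the genes of the 8 partner and pathway lists, replicate 1 as circles and replicate 2 as squares, each gene on its own row of points within its list and the highest gene of each list named. Points at the left edge are genes with 0 TPM, and the dotted line marks 10 TPM. Lgals9 is the highest gene plotted, at 1076.8 and 1069.4 TPM.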

How the data were processed

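The 2 libraries were read from 3 tables each. The deposited gene tables give expected counts, TPM and FPKM, and the deposited transcript tables add the percent of each gene's abundance in each transcript, all made from alignments with mm10 and GENCODE M21, per the file headers and deposited notes. A further deposited transcript table was made from the reads without an alignment file and gives estimated counts and TPM. The sources used here give no program, version or strand setting.

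Levels are deposited TPM, with the mean and SD of 2 libraries. Ratios used expected counts rounded to whole reads, library sizes scaled by TMM (edgeR 4.0.16) and a prior of 0.5 reads, and took in annotated genes whose mean reached 10 reads. The exact binomial test had a threshold of 0.05, and it and its intervals cover counting error only. Nothing says that these samples came from separate animals, and the source of the spread between them was not tested. In replicates 1 and 2, 3 reads amount to 0.0662 and 0.0935 CPM. Transcripts were named at 10% of their gene or more in either library. The members, the lists, the named-gene rule (the 10 members and the 4 highest genes of each list) and the markers were chosen with earlier results of these data known, and further genes, transcripts and pairs named in the text were chosen after their values were seen. The script for the binomial test was tested on simulated data. The alternatives tried were size factors from DESeq2 1.42.0, plain library totals, other filters, other levels, FPKM, TPM ratios and the alignment-free table. The result of 1 further marker is not reported here.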

Additional observations from a re-analysis of the deposited data

How the results depend on the processing

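The count of 8 members at 10 TPM or more in both libraries was 9 at a level of 5 TPM, 7 at 20 TPM, 7 in FPKM and 8 in the alignment-free table, and with each library left out in turn it ranged from 8 to 9. The count of 9 called members was 9 with DESeq2 size factors, 10 with library totals, 9 with no filter, 8 of 9 tested at a filter of 100 reads and 9 with alignment-free counts. Over all tested genes, 8183 of 12552 were called in the main setting, 8193 with DESeq2 size factors and 8333 with library totals. With no filter 8146 of 18947 genes were called, at a filter of 100 reads 7272 of 9702, and with alignment-free counts 8547 of 13868. No member changed direction. The call of Pdcd1lg2 was lost with alignment-free counts (log2 ratio -1.03, adjusted p = 0.133), and Cd200r1 passed the exact test with library totals (log2 ratio -0.16, adjusted p = 0.000594) and with alignment-free counts (-0.10, adjusted p = 0.0357). No paired analysis was possible because there is 1 group. With 1 library left, no SD exists. Pdcd1lg2 is the member that depth limits, at 18 and 3 reads.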

Other observations

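Cd28, a gene best known from T cells, was read in both libraries, below its own ligand Cd86 (51.71 and 60.45 TPM) and above its ligand Cd80 (12.05 and 26.5 TPM). It was chosen here after its values were seen. Cd28 had 4260 and 3063 reads and 33.4 and 35.46 TPM in replicates 1 and 2, and its protein-coding transcript Cd28-201 held 100% and 99.9% of that. The alignment-free table gave 28.6 and 35.3 TPM, and no annotated gene overlaps Cd28. The 5 T cell markers summed to 0.59 and 0.21 TPM in the same libraries. Lag3, also chosen after its values were seen, came wholly from its coding transcript Lag3-201 and was at 8.88 and 3.96 TPM in the alignment-free table.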
